A study of Mus musculus with 6 samples.

Results

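The mitochondrial genome transcripts are the 37 genes that the deposited tables place on the mitochondrial chromosome, of 54320 genes in all. They were chosen by chromosome alone and fall by biotype into 13 protein-coding mRNAs, 2 rRNAs and 22 tRNAs. Liver RNA of 6 C57BL/6 mice was sequenced, with 3 libraries labelled HuR flox/flox (FF in the labels, called flox here) and 3 labelled HuR HKO, with the genotype HuRflox/flox Alb-Cre+/-. HuR is an RNA-binding protein that binds AU-rich elements, and Elavl1 is its gene. All 6 mice carried the floxed HuR alleles, ate a diet labelled MCD for 3 weeks and were 11 weeks old at collection. Cre is driven by the albumin promoter, which is active in hepatocytes, so liver cells in which it is never active keep HuR. The comparison asks how the transcripts differ with the HuR genotype of hepatocytes on this diet.

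Mouse mitochondrial DNA is a small circle that codes for core subunits of respiratory complexes I, III, IV and V, and for the rRNAs and tRNAs that translate them. It is transcribed from both strands as long precursors, from which mRNAs and rRNAs are freed where tRNAs are cut out between them. All other respiratory chain subunits, and all proteins that transcribe, process and translate mitochondrial RNA, are made from nuclear genes. Pieces of mitochondrial DNA have also been inserted into nuclear chromosomes, and reads from a recent insertion can match both places.

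Such copies match part of the mouse mitochondrial genome, and their sequence is shown first because the mRNAs that lie wholly inside the stretch they span had the lowest levels. A search of the GENCODE M21 transcripts (GRCm38) with each mitochondrial gene found 7 pseudogenes at least 99% identical to their mitochondrial gene. They lie together on the minus strand of chromosome 1, at chr1:24611535-24616197, and lie in the same order as their genes, which they match within a stretch of 4653 bases of mitochondrial DNA, at chrMT:6390-11042. Of these bases 4136 are matched by an annotated copy. For 6 genes inside the stretch, mt-Atp8 and 5 tRNAs, the search found no copy of their own. The 43 bases that mt-Atp8 shares with mt-Atp6 lie in the copy of mt-Atp6. Likewise the 3 bases that mt-Ts1 shares with mt-Co1 lie in a copy of mt-Co1. The first 60 bases of the complex IV subunit gene mt-Co3 (plus strand, chrMT:8607-8666) and of its copy Gm28437 (minus strand, chr1:24613189-24613971) were identical. The first 60 bases of the complex I subunit gene mt-Nd3 (plus strand, chrMT:9459-9518) and of Gm28438 (minus strand, chr1:24612775-24613119) differed at 1 base, shown in capitals. That substitution is T3C, counted from 1 at the 5′ end of the gene, with the base of mt-Nd3 first.
mt-Co3: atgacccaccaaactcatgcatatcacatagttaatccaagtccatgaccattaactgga
Gm28437: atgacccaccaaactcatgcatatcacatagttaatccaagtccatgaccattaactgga
mt-Nd3: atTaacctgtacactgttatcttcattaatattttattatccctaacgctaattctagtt
Gm28438: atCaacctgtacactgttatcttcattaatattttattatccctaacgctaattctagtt

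Genes outside that stretch have more distant copies or none among the annotated transcripts. The complex III gene mt-Cytb has a copy of 92.9% identity on chromosome 4, Gm11410 (plus strand, chr4:80003989-80005131), which had no reads in any library. Bases 61 to 120 of mt-Cytb (plus strand, chrMT:14205-14264) and the matching bases of Gm11410 are shown with the 5 differing bases in capitals.
mt-Cytb: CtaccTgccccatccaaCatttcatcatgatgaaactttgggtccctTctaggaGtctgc
Gm11410: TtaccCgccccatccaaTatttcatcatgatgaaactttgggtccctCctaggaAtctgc

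Between 16769082 and 20633215 reads per library were assigned to genes. Flox 2 stood apart, where 16608 genes had reads, compared with 19920 to 22067 elsewhere. The slope of the deviation of its genes from the mean on log2 gene length was -0.142, against -0.040 to 0.049 in the other libraries. Flox 3 stood apart in the test over all genes: limma called 2 of 13787 genes with all libraries and 5575 without flox 3. HKO 3 stood apart in exocrine pancreas markers, which summed to 3327 FPKM there and to at most 33.3 FPKM elsewhere. Elavl1 did not have lower values under the HKO label. Its level was 3.51, 2.36 and 2.99 FPKM in flox libraries 1 to 3, against 5.77, 4.28 and 4.91 in HKO libraries 1 to 3, and did not pass at 0.67 ± 0.23 SE on the log2 scale (limma adjusted p = 0.208). The sources used here do not give the deleted exons. This sum over the whole gene goes against the labels without testing the deletion itself, and each direction below is between libraries by label. FPKM, the unit of all levels below, is reads per kilobase of gene, scaled by library.

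Mitochondrial genes took a similar share of the reads in 5 of the 6 libraries. The share was 4.34%, 2.26% and 4.52% of assigned reads in flox libraries 1 to 3, against 4.45%, 4.46% and 4.69% in HKO libraries 1 to 3. Flox 2 was the low library, the groups overlapped, and the exact binomial 95% interval was 2.25% to 2.26% in flox 2 and 4.68% to 4.69% in HKO 3. Such intervals cover counting error only. The mRNAs made up nearly all of it, at 4.25%, 2.20% and 4.48% in flox, against 4.36%, 4.36% and 4.57% in HKO.

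The rRNA and tRNA shares were higher in every library labelled HKO than in every library labelled flox. The rRNA share was 0.0668%, 0.0489% and 0.0298% in flox libraries 1 to 3, against 0.0729%, 0.0788% and 0.0953% in HKO libraries 1 to 3. The tRNA share was 0.0151%, 0.0105% and 0.0110% in flox, against 0.0178%, 0.0201% and 0.0181% in HKO. These are sums over genes and carry no test. Scaled to total reads, as these shares are, all tested genes had a median log2 fold change (HKO minus flox) of 0.25. By FPKM, 15.3% of all tested genes were higher in every HKO library than in every flox library. The tRNA genes are 59 to 75 bases long. Here and below, reads on them may come from precursors as well as mature tRNAs, which was not tested. As summed FPKM, which is scaled between libraries differently, the tRNAs again did not overlap, with 2201, 1718 and 1916 in flox, against 2207, 2644 and 2533 in HKO, while the rRNAs did. Flox 1 and HKO 1 lay close together in that tRNA sum. In liver as a whole, fewer cells of a type and less RNA per cell cannot be told apart.

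Of the 37 genes, 32 reached a mean of 0.5 FPKM and entered the test, namely all mRNAs, both rRNAs and 17 tRNAs. The other 5 were tRNAs: mt-Tf, mt-Td, mt-Tk and mt-Tg had 0 reads in every library, and mt-Ts1 had 2 reads, both in HKO 2. A count of 0 allows a share of up to 1.79e-05% of reads in HKO 1, the library with the fewest reads. Reads in all 6 libraries were found for 26 genes.

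**Figure D1:**
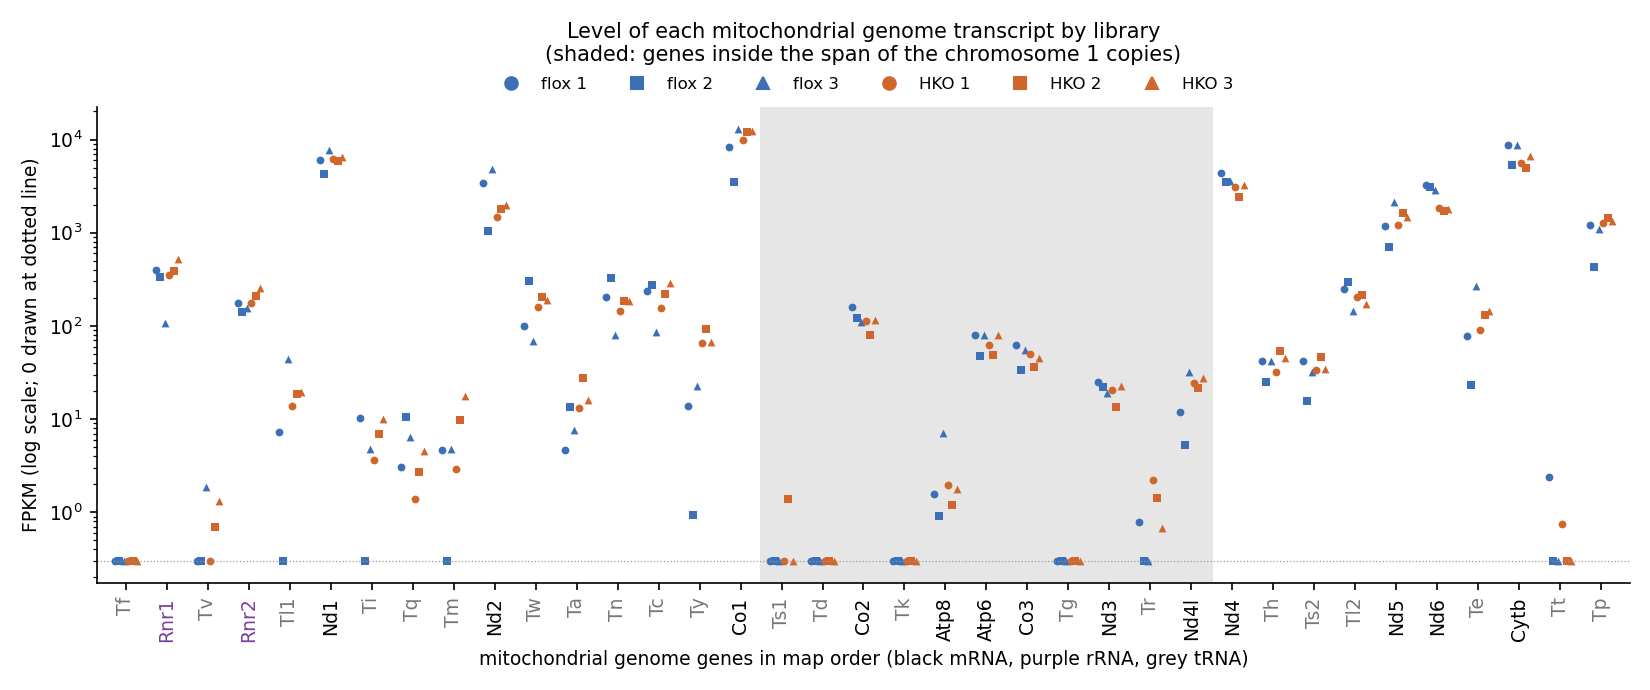
Each point is the FPKM of 1 gene in 1 library on a log axis, with the 37 genes in map order and values of 0 drawn on the dotted line. The 6 mRNAs inside the shaded stretch lie between 0.914 and 159 FPKM, below every value of the other 7 mRNAs, and 4 of the 5 tRNAs inside it have 0 reads in at least 5 libraries.

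The mRNAs lay in separate ranges of level, and the lower ones lay inside the stretch that the copies span. Mean levels over the 6 libraries were 9829 FPKM for mt-Co1, which codes for the catalytic subunit of complex IV, 6648 for mt-Cytb and 6069 for mt-Nd1. The other complex I subunit genes outside the stretch, or only partly in it, followed at 3358 for mt-Nd4, 2421 for mt-Nd6, 2420 for mt-Nd2 and 1384 for mt-Nd5. Neighbours among these 7 overlapped over the libraries, and the lowest single value was 703 FPKM (mt-Nd5 in flox 2).

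All 6 mRNAs wholly inside the stretch were lower than all the others in every library. Mean levels were 117 FPKM for mt-Co2 and 47.3 for mt-Co3, both core subunits of complex IV, and 66.6 for mt-Atp6, a subunit of the proton channel of complex V. The complex I genes mt-Nd4l and mt-Nd3 had means of 20.5 FPKM each, and mt-Atp8, the small complex V subunit, had 2.41. Between neighbours in the order of these 6 levels, the ranges over the libraries were apart between mt-Co3 and mt-Nd4l and between mt-Nd3 and mt-Atp8. The 5 tRNAs inside the stretch had 9 reads in all libraries together. The 17 outside had 17052, of which mt-Tp held 8726, but mt-Tf had 0, mt-Tt 4 and mt-Tv 5, so the tRNAs did not split at the boundary as the mRNAs did. How reads that match 2 places were counted is not given in the sources used here, and its part in these low values was not tested.

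For 5 of the 7 copies the reads were of the same order as those of their genes, or more. Gm28661, whose 681 bases match mt-Co2 without a mismatch, took 35.4% to 39.9% of the reads assigned to gene or copy, depending on the library. The copy of mt-Atp6, Gm10925, took 50.7% to 57.3%, and that of mt-Co3, Gm28437, took 45.2% to 59.2%. Gm28438, with its single T3C difference, took 87.0% to 97.2% of the reads assigned to it or to mt-Nd3. Gm28439, identical to the first 876 bases of mt-Nd4, took 0.117% to 0.554%. Gm29216, which matches the last 483 bases of mt-Co1 with the substitution A1066T, took 0.0939% to 0.811%. These copies match only 63.6% of mt-Nd4 and 31.3% of mt-Co1, while reads were counted over the whole genes. Their shares therefore cannot be set beside those of the other 5 copies. By mean level Gm28439 was at 19.2 FPKM and Gm29216 at 63.7, and the other 5 copies at 46.1 to 443. Of the less identical copies, 2 reached a mean of 0.5 FPKM: Gm13340 on chromosome 2, 97.6% identical to mt-Co1, at 0.241 to 3.13 FPKM, and Gm43743 on chromosome 3, which matches 116 bases of mt-Atp6 at 94.8%, at 0.234 to 0.978 FPKM.

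**Figure D2:**
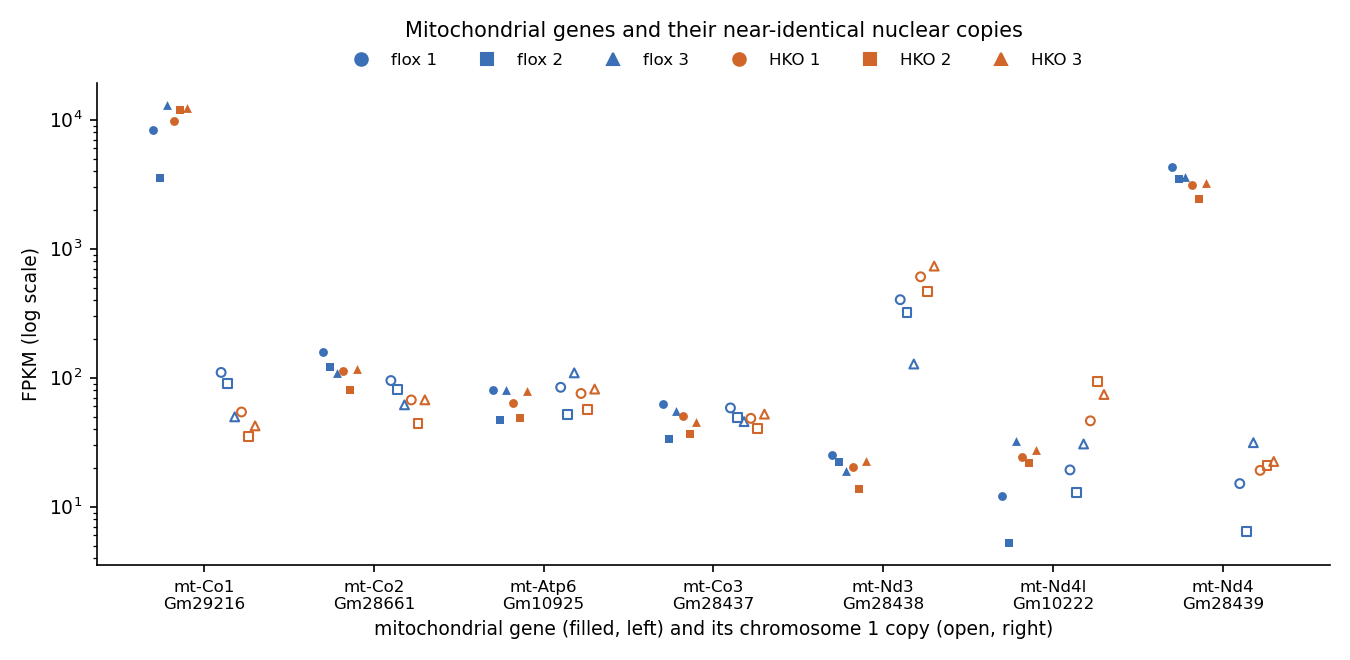
FPKM on a log axis of 7 mitochondrial genes (filled) and their chromosome 1 copies (open) in each library. The copy of mt-Nd3 lies between 128 and 734 FPKM, above its gene at 13.6 to 25.1 FPKM. The copies of mt-Co1 and mt-Nd4, which match only part of these genes, lie far below them.

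For mt-Nd3 the row chosen set the direction between the groups. The row of the gene itself had 25.1, 22.3 and 18.9 FPKM in flox libraries 1 to 3, against 20.5, 13.6 and 22.5 in HKO libraries 1 to 3. Its log2 fold change (HKO minus flox, ± SE) was -0.25 ± 0.26 (limma adjusted p = 0.568). Gm28438 had 403, 322 and 128 FPKM in flox libraries 1 to 3, against 606, 469 and 734 in HKO libraries 1 to 3, so that its groups did not overlap. At 1.22 ± 0.46 SE on the log2 scale the copy did not pass (limma adjusted p = 0.219). With the reads of gene and copy added, a choice made after seeing the data, the log2 fold change was 1.13 ± 0.43 SE (limma adjusted p = 0.221).

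mt-Nd4l had 12, 5.23 and 32.1 FPKM in flox libraries 1 to 3, against 24.3, 21.8 and 27.7 in HKO libraries 1 to 3. Flox 3 was the highest library and flox 2 the lowest, so the groups overlapped, and the log2 fold change was 0.92 ± 0.59 SE (limma adjusted p = 0.378). Its copy Gm10222 had 19.3, 12.9 and 30.6 FPKM in flox libraries 1 to 3, against 46.3, 93.1 and 74.1 in HKO libraries 1 to 3, a log2 fold change (± SE) of 1.77 ± 0.39 that did not pass (limma adjusted p = 0.159). Gene and copy together gave 1.49 ± 0.46 SE (limma adjusted p = 0.194). Adding the copy kept the direction of mt-Co2 (-0.36), mt-Atp6 (-0.13), mt-Co3 (-0.15), mt-Nd4 (-0.39) and mt-Co1 (0.63).

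The other genes inside the stretch overlapped between the groups. mt-Co2 had 159, 121 and 109 FPKM in flox libraries 1 to 3, against 113, 80.2 and 117 in HKO libraries 1 to 3, at -0.33 ± 0.26 SE on the log2 scale. mt-Atp6 and mt-Co3 were at -0.12 ± 0.31 and -0.16 ± 0.29 SE. mt-Atp8, which shares 43 of its 204 bases with mt-Atp6, had 1.59, 0.914 and 7.04 FPKM in flox libraries 1 to 3, against 1.96, 1.19 and 1.80 in HKO libraries 1 to 3, and its value of -0.41 turned to 0.30 without flox 3.

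No mitochondrial gene passed the test between the libraries labelled HKO and flox. Over all genes limma called 0.0145% at a Benjamini-Hochberg adjusted p of 0.05, and of the 32 members it called 0, by voom on the recovered reads also 0. At an unadjusted p below 0.05 there were 4 of 32 members, against 20.9% of all genes. The median log2 fold change was -0.25 over the 13 mRNAs, 0.58 over the 2 rRNAs and 0.54 over the 17 tested tRNAs, beside a median of -0.0018 and middle 50% of -0.45 to 0.47 over all genes. Positive values were found for 4 mRNAs, 2 rRNAs and 13 tRNAs. Scaling to total reads moved the median of all genes by 0.25, to 0.25. The mRNA median was then 0.05, and 0.19 after quantile normalization, so its sign depends on the scaling, while rRNA and tRNA medians stayed positive under each scaling.

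**Figure D3:**
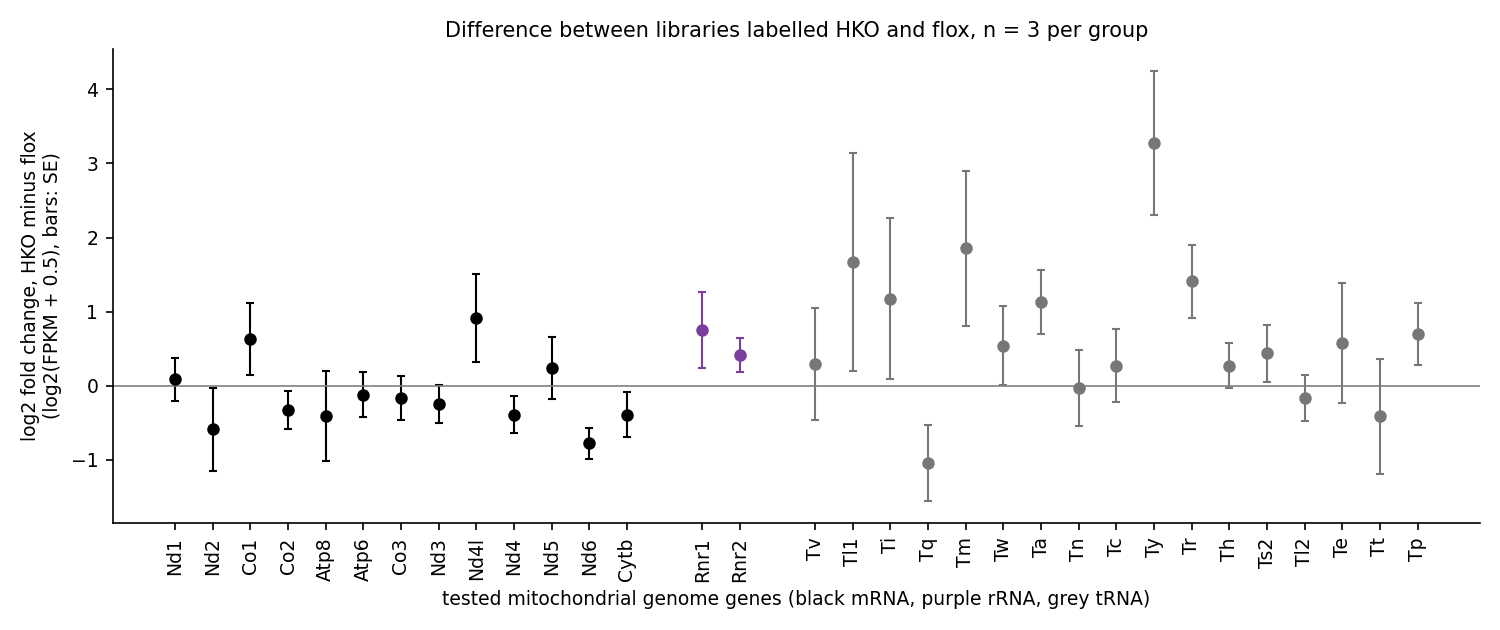
Points are log2 fold changes, HKO minus flox, of the 32 tested mitochondrial genes, with bars for the SE. mt-Ty has the highest value (3.28) and mt-Tq the lowest (-1.04), and the mRNAs lie between -0.78 and 0.92.

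Groups did not overlap for 4 of the 32 members, beside 31.9% of all tested genes. Of these, 2 were higher in HKO (all genes: 15.3%) and 2 lower (all genes: 16.7%). Without overlap the exact two-sided permutation p is 0.1, the smallest that 3 against 3 allows.

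mt-Nd6 was one of those with lower values in HKO. It codes for a complex I subunit and is the only mRNA on the minus strand, opposite the other 12. Its level was 3215, 3105 and 2854 FPKM in flox libraries 1 to 3, against 1847, 1694 and 1809 in HKO libraries 1 to 3. The values lay close together within each group, and the log2 fold change was -0.78 ± 0.21 SE (limma adjusted p = 0.179, range over alternatives 0.0171 to 1). Scaled to total reads it was -0.48, with the length trend of each library removed -0.51, and after quantile normalization 0. Without flox 3 it passed, at -0.83 (limma adjusted p = 0.0171), where 40.4% of all genes passed as well. The last 14 bases of mt-Nd6 overlap the end of mt-Nd5 on the other strand, where reads of the 2 genes can be told apart only by strand. The sources used here do not say whether counting used strand. If it did not, reads from plus-strand precursors over any of the 519 bases would also count as mt-Nd6, which was not tested.

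mt-Nd4, which codes for a proton-pumping subunit of complex I, was the other. It had 4324, 3502 and 3580 FPKM in flox libraries 1 to 3, against 3109, 2415 and 3220 in HKO libraries 1 to 3, a log2 fold change (± SE) of -0.39 ± 0.25 (limma adjusted p = 0.372). The gap between the groups was narrow, between 3220 and 3502 FPKM, and quantile normalization turned the direction (0.36). Scaled to total reads the log2 fold change was -0.088, and with the length trend removed -0.12.

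The other abundant mRNAs overlapped between the groups. mt-Co1 had 8299, 3538 and 13126 FPKM in flox libraries 1 to 3, against 9772, 11923 and 12318 in HKO libraries 1 to 3, a log2 fold change (± SE) of 0.63 ± 0.49 (limma adjusted p = 0.450). Flox held both the lowest and the highest library, and the log2 fold change was 0.11 without flox 2 and 1.06 without flox 3. mt-Cytb had 8700, 5370 and 8697 FPKM in flox libraries 1 to 3, against 5582, 4889 and 6650 in HKO libraries 1 to 3, at -0.39 with an SE of 0.30.

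mt-Nd2, another core subunit gene of complex I, had 3456, 1054 and 4778 FPKM in flox libraries 1 to 3, against 1459, 1793 and 1978 in HKO libraries 1 to 3. Here too flox 2 was the lowest library, below all of HKO, and the log2 fold change was -0.58 ± 0.56 SE, with -1.23 without flox 2 and -0.14 without flox 3. mt-Nd1 and mt-Nd5 had log2 fold changes of 0.09 and 0.24 with SEs of 0.29 and 0.42.

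The relative make-up of the mRNA pool does not depend on scaling between libraries. mt-Co1 made up 23.4%, 16.3% and 30.4% of the summed FPKM of the 13 mRNAs in flox libraries 1 to 3, against 33.3%, 39.2% and 36.0% in HKO libraries 1 to 3. The HKO libraries were all above the flox libraries, with means of 36.1% ± 2.97 (SD, n = 3) and 23.4% ± 7.09 (SD, n = 3). mt-Cytb went the other way, with 24.5%, 24.7% and 20.2% in flox, against 19.0%, 16.1% and 19.4% in HKO. mt-Nd6 was also lower in HKO, at 6.29%, 5.57% and 5.28%, against 9.05%, 14.3% and 6.62% in flox.

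The shares of the other 10 mRNAs overlapped. By level, the groups did not overlap for 31.9% of all tested genes. The ratio of mt-Co1 to mt-Cytb was 0.954, 0.659 and 1.51 in flox libraries 1 to 3, against 1.75, 2.44 and 1.85 in HKO libraries 1 to 3. By FPKM, mt-Cytb was thus the higher in flox 1 and 2 and mt-Co1 in the other 4 libraries. Copies at least 99% identical match 31.3% of mt-Co1 and 63.6% of mt-Nd4, but 0% of mt-Cytb. Since the counting of reads that match 2 places is not given, FPKM may not follow transcript abundance here. Its part in the shares and in this ratio was not tested. Shares within 1 pool are not independent of each other, and these have no test. Leaving out flox 2, the library with the length trend, brought the difference for mt-Co1 from 12.8 to 9.24 percentage points and that for mt-Nd6 from -4.27 to -2.12.

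**Figure D4:**
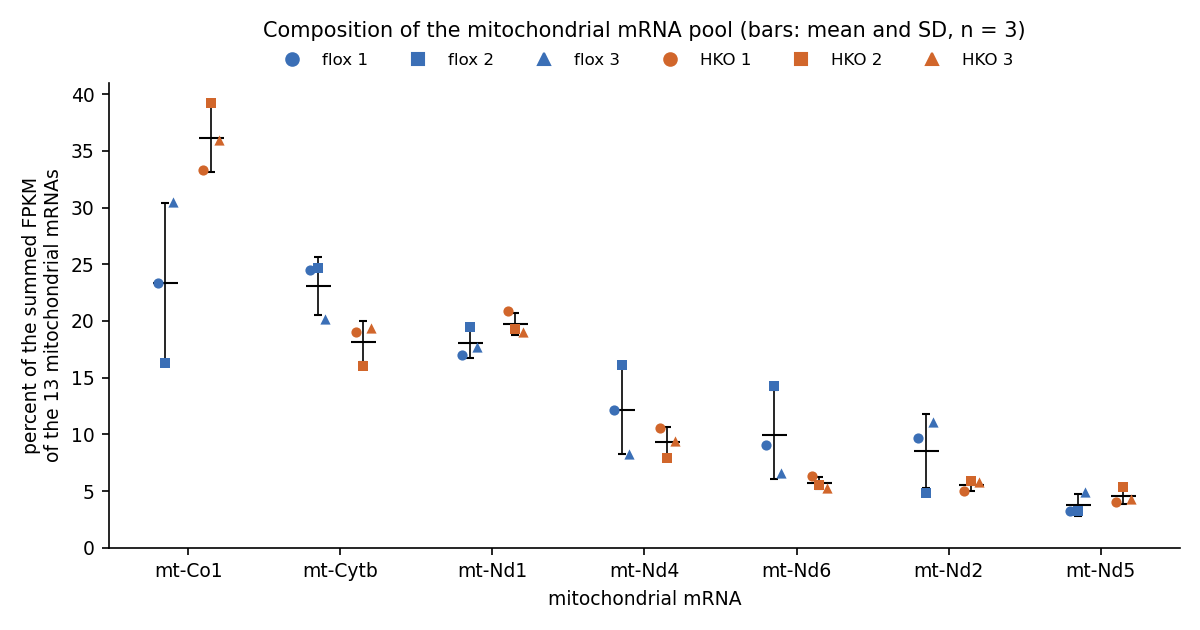
Points are the share of each of the 7 most abundant mRNAs in the summed FPKM of the 13 mitochondrial mRNAs, in percent, for each library, with the mean and SD of each group. The HKO points lie above all flox points for mt-Co1 and below them for mt-Cytb and mt-Nd6.

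Genes on the minus strand, mt-Nd6 and 8 tRNAs, took a lower share of all mitochondrial reads in HKO. The share was 4.16%, 6.66% and 2.97% in flox libraries 1 to 3, against 2.89%, 2.57% and 2.43% in HKO libraries 1 to 3. Flox 3 and HKO 1 were nearly level. Most minus-strand reads lay on mt-Nd6, with 137440 over all libraries against 8726 for mt-Tp, so the share largely follows mt-Nd6. Of the minus-strand tRNAs, mt-Tp, mt-Ty, mt-Ta, mt-Tc and mt-Te had positive log2 fold changes, and mt-Tq and mt-Tn negative ones. The remaining one, mt-Ts1, was not tested. Whether counting used strand is not given. The ratio of mt-Nd6 to its overlapping neighbour mt-Nd5 was 2.76, 4.42 and 1.34 in flox, against 1.54, 1.03 and 1.23 in HKO, and there the groups overlapped.

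The rRNA genes mt-Rnr1 (12S, of the small mitochondrial ribosomal subunit) and mt-Rnr2 (16S, of the large one) lay well below the abundant mRNAs. mt-Rnr1 had 400, 338 and 109 FPKM in flox libraries 1 to 3, against 348, 386 and 523 in HKO libraries 1 to 3, a log2 fold change (± SE) of 0.75 ± 0.51 (limma adjusted p = 0.397). Flox 3 was the low library, and without it the log2 fold change was 0.17 and the median of both rRNAs 0.29. mt-Rnr2 had 177, 143 and 157 FPKM in flox libraries 1 to 3, against 176, 210 and 253 in HKO libraries 1 to 3, at 0.41 with an SE of 0.23 (limma adjusted p = 0.322).

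The ratio of the rRNAs to each other set flox 3 apart. mt-Rnr1 was at 2.26 and 2.37 times the level of mt-Rnr2 in flox 1 and 2 and at 1.98, 1.83 and 2.06 times in HKO, but at 0.690 times in flox 3. Summed rRNA was 1.62%, 2.21% and 0.617% of summed mRNA in flox and 1.78%, 1.96% and 2.27% in HKO. The labels do not say how rRNA was treated in the library preparation, so these ratios describe the libraries and not the cell.

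Among the tRNAs, mt-Tp (proline) had by far the most reads. Its sequence and that of mt-Ty (tyrosine) are shown because these were the tRNAs whose groups did not overlap; both are read from the minus strand of GRCm38, mt-Tp at chrMT:15356-15422 and mt-Ty at chrMT:5260-5326, with no capitals.
mt-Tp: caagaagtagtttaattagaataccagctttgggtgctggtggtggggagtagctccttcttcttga
mt-Ty: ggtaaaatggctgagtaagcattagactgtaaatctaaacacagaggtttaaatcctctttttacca

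mt-Tp had 1201, 426 and 1104 FPKM in flox libraries 1 to 3, against 1280, 1423 and 1334 in HKO libraries 1 to 3. It held 52.2% to 57.5% of all tRNA reads in 5 libraries and 24.3% in flox 2. The groups came close, at 1201 and 1280 FPKM, and the log2 fold change of 0.70 had an SE of 0.42 (limma adjusted p = 0.348). Without flox 2 it was 0.22, and with the length trend removed 0.25.

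mt-Ty was the tRNA with the widest difference. It had 13.7, 0.927 and 22.4 FPKM in flox libraries 1 to 3, against 66.2, 93.1 and 67.0 in HKO libraries 1 to 3, which rest on 17, 1 and 23 reads and on 89, 129 and 98 reads. Every HKO library was above every flox library, and the log2 fold change was 3.28 ± 0.97 SE (limma adjusted p = 0.188, range over alternatives 0.0211 to 0.526). Without flox 2, with its 1 read, it was 2.06 (limma adjusted p = 0.154). Without flox 3 it was 4.06 and passed (limma adjusted p = 0.0211), as did mt-Nd4l, at 1.56 (limma adjusted p = 0.0207). These and mt-Nd6 were the 3 members called without flox 3, beside 40.4% of all genes.

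The remaining tRNAs spanned more than 2 orders of magnitude. After mt-Tp, whose range stood clear of the next, came mt-Tl2 (leucine) with a mean of 214 FPKM, mt-Tc (cysteine) with 210, mt-Tn (asparagine) with 189, mt-Tw (tryptophan) with 171 and mt-Te (glutamate) with 122. Next were mt-Ty at 43.9, mt-Th (histidine) at 40.0 and mt-Ts2 (serine) at 34.1 FPKM. Lower means were 17.3 FPKM for mt-Tl1 (leucine), 13.7 for mt-Ta (alanine), 6.67 for mt-Tm (methionine), 5.91 for mt-Ti (isoleucine) and 4.77 for mt-Tq (glutamine). The lowest of those tested were mt-Tr (arginine) at 0.848, mt-Tv (valine) at 0.653 and mt-Tt (threonine) at 0.527 FPKM, and from mt-Tl2 down no neighbour in the order was apart from the next over all 6 libraries.

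Their folds were poorly determined. Unadjusted p below 0.05 was reached by mt-Ta, with 4.70, 13.5 and 7.57 FPKM in flox libraries 1 to 3, against 13.01, 27.3 and 15.9 in HKO libraries 1 to 3 (limma adjusted p = 0.222). It was also reached by mt-Tr, at 0 to 0.794 FPKM in flox and 0.673 to 2.20 FPKM in HKO (limma adjusted p = 0.211), which rests on 7 reads in all. Both overlapped between groups. mt-Tm had 4.70, 0 and 4.73 FPKM in flox libraries 1 to 3, against 2.89, 9.82 and 17.9 in HKO libraries 1 to 3, and its value of 1.86 ± 1.04 SE (limma adjusted p = 0.326) was 0.73 without flox 2. mt-Ti was at 1.18 ± 1.08 SE and at -0.12 without flox 2. mt-Tq had the lowest value, at -1.04 with an SE of 0.51. With the length trend of each library removed the median of the 17 tRNAs was 0.08, and without flox 2 it was 0.05.

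Nuclear genes for the same respiratory complexes had lower values in HKO. Of 72 tested nuclear subunits of complexes I, III, IV and V, counting the complex V inhibitor Atpif1, 67 had negative log2 fold changes and 0 passed the test. The median was -0.65, beside -0.25 for the 13 mitochondrial mRNAs, and the groups did not overlap in the lower direction for 59 of the 72 (all genes: 16.7%) and for 2 of the 13 mRNAs. The nuclear median was -0.35 scaled to total reads, -0.27 after quantile normalization, -0.49 with the length trend removed and -0.47 without flox 2. Summed, these subunits had 9583, 14272 and 7940 FPKM in flox libraries 1 to 3, against 6278, 6042 and 6200 in HKO libraries 1 to 3.

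Flox 2, lowest for the mitochondrial mRNAs, was highest for the nuclear subunits. The ratio of summed mitochondrial mRNA to summed nuclear subunit mRNA was 3.71, 1.52 and 5.43 in flox, against 4.68, 5.03 and 5.53 in HKO, with the groups overlapping through flox 3. Its mitochondrial sum includes the 6 mRNAs inside the stretch that the copies span and the 2 partly in it. The part that reads matching 2 places play in the ratio was not tested. By complex the nuclear medians were -0.65 for complex I (35 of 36 negative), -0.70 for complex III (7 of 9), -0.67 for complex IV (11 of 11) and -0.58 for complex V (14 of 16).

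Named by their small p, the complex I gene Ndufa5 had 77.9, 88.1 and 74.4 FPKM in flox libraries 1 to 3, against 50.02, 45.4 and 41.5 in HKO libraries 1 to 3, a log2 fold change of -0.81 (limma adjusted p = 0.161), and Ndufa12 was at -1.06. Uqcrh and Uqcr10 of complex III were at -0.81 and -0.97. Cox5b and Cox7c of complex IV were at -1.12 and -0.67, and Atp5e and Atp5o of complex V at -0.97 and -0.77. Complex II, which has no mitochondrially encoded subunit, had 3 of 4 negative and a median of -0.18, with Sdhb at -0.92 and Sdhc at -0.18.

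**Figure D5:**
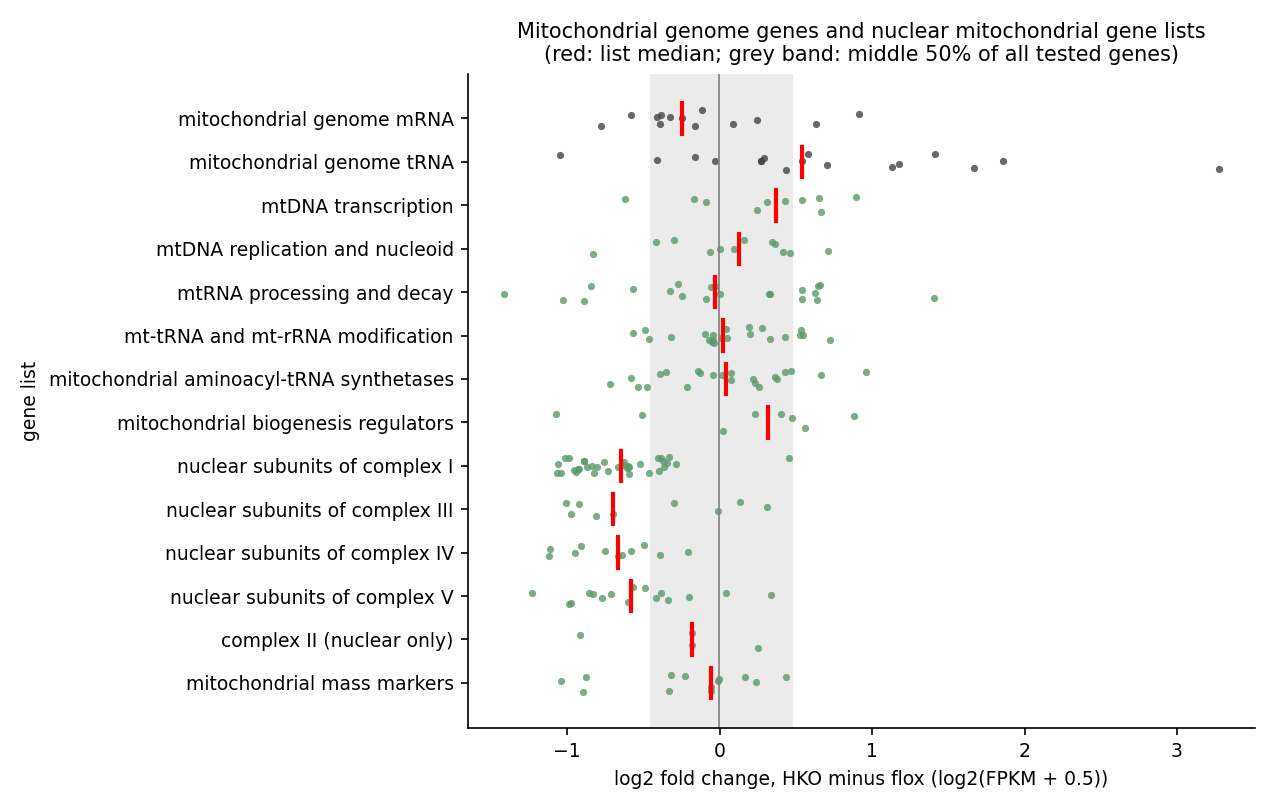
Each point is the log2 fold change, HKO minus flox, of 1 tested gene, by list, with the list median in red and the middle 50% of all tested genes in grey. Nuclear subunits of complexes I, III, IV and V lie mostly left of 0, with list medians of -0.58 to -0.70, against -0.25 for the mitochondrial mRNAs.

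Genes that act on mitochondrial DNA and RNA had values of both signs, and 0 of them passed. For transcription, 7 of 10 had positive values (median 0.37), with the elongation factor Tefm at 0.65 and the RNA polymerase Polrmt at -0.62. Replication and nucleoid genes had a median of 0.13, with the DNA ligase Lig3 at 0.71 and the membrane ATPase Atad3a at -0.83.

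Trmt10c had the smallest p among the genes for cleavage, polyadenylation, stability and decay, whose median over 21 tested genes was -0.03. It codes for a subunit of mitochondrial RNase P, which cuts the 5′ ends of tRNAs out of the precursor. Its level was 5.94, 4.12 and 4.07 FPKM in flox libraries 1 to 3, against 14.9, 12.99 and 11.7 in HKO libraries 1 to 3. The groups were far apart, with a log2 fold change of 1.41 and an SE of 0.23, yet the gene did not pass over all genes (limma adjusted p = 0.125). Rexo2, an exonuclease that degrades short RNA fragments, had 40.6, 42.6 and 30.1 FPKM in flox libraries 1 to 3, against 18.7, 19.3 and 16.4 in HKO libraries 1 to 3, at -1.03 (limma adjusted p = 0.157).

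For modification of mitochondrial tRNA and rRNA the median was 0.02, with the methyltransferase Trmt61b at 0.53 and the demethylase Alkbh1 at 0.55. The mitochondrial aminoacyl-tRNA synthetases, on a list that also held the amidotransferase genes Qrsl1, Gatb and Gatc, had a median of 0.04. Hars2 (histidine) was at 0.96 and Fars2 (phenylalanine) at -0.72. Among regulators of mitochondrial biogenesis the median was 0.32, with the nuclear receptor Esrra at -1.07 and the transcription factor Yy1 at 0.56. Mitochondrial mass markers had a median of -0.06, with the prohibitins Phb and Phb2 at -0.90 and -0.88. Of 184 genes on all these nuclear lists 0 passed with all libraries, and 85 passed without flox 3, beside 40.4% of all genes.

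Markers of some other liver cells differed between the groups, and those of others overlapped. The hepatocyte list overlapped, at 46092 to 60545 summed FPKM in flox and 47142 to 59766 in HKO, with 8 of 8 genes detected. Of 6 neutrophil markers 4 reached a mean of 0.5 FPKM, with Ly6g at 0 in every library, and the list summed to 24.5 to 53.5 FPKM in flox and 4.202 to 5.88 FPKM in HKO. The 8 macrophage and Kupffer cell markers summed to 502 to 732 FPKM in flox and 253 to 422 FPKM in HKO, and the 5 cholangiocyte markers to 5.80 to 10.3 and 12.3 to 24.3 FPKM. Overlapping lists were those of stellate cells and fibroblasts, at 107 to 124 FPKM in flox and 111 to 130.0 in HKO, and of endothelial cells, at 60.9 to 124 and 48.2 to 66.7. Lymphocyte markers, at 0.937 to 8.29 and 1.54 to 3.29 FPKM, and erythroid markers, at 207 to 729 and 233 to 333 FPKM, overlapped as well. Muscle and adipocyte markers summed to at most 3.54 FPKM in any library. Exocrine pancreas markers summed to 3327 FPKM in HKO 3 and to at most 33.3 FPKM elsewhere. The part of these cells in the mitochondrial values was not tested.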

How the data were processed

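The authors deposited FPKM values in 1 table per group, per the file headers, with gene names, positions, lengths and biotypes. TopHat2, HTSeq 0.6.1 and GRCm38.p6 are named in the submitters' processing notes. Whole reads were recovered for 100% of the deposited FPKM values (tolerance 0.01 of a read), and both tables share 1 set of median-of-ratios size factors. Members were the rows on chromosome MT. The members and gene lists were chosen with earlier results of these data known.

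Values were tested as log2(FPKM + 0.5), which understates changes of low genes, for the 13787 genes that reached a mean of 0.5 FPKM, with limma 3.58.1 in R 4.3.3 (group model, mean-variance trend, two-sided, Benjamini-Hochberg adjustment, threshold 0.05). The labels do not say that the samples come from separate litters or batches, so p-values measure only the spread between these libraries, which may be technical. The code was tested on simulated data. The count-based voom test called 2 genes. Named were all mRNAs and rRNAs, tRNAs at 0.5 FPKM or above, and of each nuclear list the 2 genes with the smallest p. List genes were matched by symbol, and Prorp by a RefSeq synonym. Copies were searched with blastn 2.17.0 (at least 90% identity over 50 bases) against 141730 GENCODE M21 transcripts, so copies without an annotated transcript were not searched. Sequences come from GENCODE M21 transcripts on GRCm38. Alternatives were pseudocounts, filters, scalings, moderation, a replicate block, removal of each library's length trend and leaving out each library; adding copies to their genes was chosen after seeing the data.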

Additional observations from a re-analysis of the deposited data

How the results depend on the processing

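No mitochondrial gene was called under any setting with all 6 libraries. Over all genes 2 were called, 3 when scaled to total reads, 3 without a trend in the variance, 1 with the replicate block and 1 with the block and length trend removed, and 0 to 5575 with 1 library left out. The corresponding ranges were 0 to 3 mitochondrial genes and 0 to 85 genes on the nuclear lists, with the upper ends without flox 3. The replicate numbers did not pair the libraries: deviations of same-numbered libraries correlated at -0.042, -0.090 and 0.070, and flox 2 correlated best with HKO 1 (0.174). With the replicate block 0 mitochondrial genes and 0 nuclear list genes were called.

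Of 32 tested members 11 kept their sign in every setting. Directions turned with quantile normalization for mt-Nd2 (0.17), mt-Tn (0.56), mt-Co2 (0.17), mt-Atp6 (0.29), mt-Co3 (0.19), mt-Nd4 (0.36), mt-Tl2 (0.46) and mt-Cytb (0.013). Under that setting mt-Nd6 was at 0, with no direction. Scaling to total reads turned mt-Tn (0.27), mt-Atp6 (0.18), mt-Co3 (0.13), mt-Nd3 (0.046) and mt-Tl2 (0.14). Removal of the length trend, with the replicate block or without, turned mt-Tv (-0.15), mt-Tc (-0.19), mt-Atp6 (0.16), mt-Co3 (0.12), mt-Th (-0.18) and mt-Ts2 (-0.069). Adding the copy turned mt-Nd3 (1.13). The cause was not tested.

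Leaving out flox 2 moved the log2 fold change of 24 of the 32 by over 1.5 times or turned it, and leaving out flox 3 that of 17. Leaving out 1 library at a time, log2 fold changes that turned ranged from -0.12 to 1.04 for mt-Tv, -0.069 to 3.17 for mt-Tl1, -0.14 to 0.28 for mt-Nd1, -0.12 to 2.09 for mt-Ti, -0.60 to 0.43 for mt-Tn, -0.25 to 0.59 for mt-Tc, -0.91 to 0.30 for mt-Atp8, -0.37 to 0.063 for mt-Atp6, -0.43 to 0.016 for mt-Co3, -0.46 to 0.051 for mt-Tl2, -0.14 to 0.65 for mt-Nd5, -0.29 to 1.46 for mt-Te and -0.85 to 0.44 for mt-Tt. As a share of reads in place of FPKM, the difference in share was 0.325 percentage points for mt-Nd1 (1.64 by FPKM) and 0.00762 for mt-Nd4l (0.0345 by FPKM). The other shares and ratios moved by less than the spread between replicates.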
